A study of Homo sapiens with 4 samples.

Results

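The genes described here are 29 of the 27106 genes in the deposited table. They make, sense or move cholesterol and were chosen by symbol, with earlier results of these data known. They are 19 enzymes of the mevalonate and sterol pathway in pathway order, and 6 genes of the machinery that senses sterols. The other 4 genes carry or store cholesterol. All 29 were found and all 29 passed the filter on low values. The study sequenced total RNA of THP-1 cells, a single human monocytic leukaemia line, after treatment with 1 of 2 antisense oligonucleotides. The control group received a non-targeting oligonucleotide (2 libraries), the knockdown group one aimed at SGOL1-AS1, a long noncoding RNA (2 libraries), and all libraries are labelled day 5. The labels give no dose, do not name the oligonucleotides further and do not say whether the libraries of a group are separate cultures, so the p-values reflect only how far these libraries vary, and that variation may be technical. The knockdown columns carry a code not explained by the labels and were taken as that group because the labels hold no other. They are numbered here by column order.

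Cells build cholesterol from acetyl-CoA through mevalonate, the isoprenoid farnesyl diphosphate and squalene, and then close and trim the sterol rings in the endoplasmic reticulum. The transcription factor SREBP2, made from SREBF2, switches on most of these enzymes. When sterols are plentiful the INSIG proteins hold SREBP2 and its escort SCAP in the endoplasmic reticulum; when they are scarce SCAP carries SREBP2 to the Golgi, where the proteases encoded by MBTPS1 and MBTPS2 release its active part. INSIG1 is itself a target of SREBP2, which makes its mRNA a commonly used readout of the pathway. Macrophage-lineage cells also take up lipoprotein cholesterol, release it from lysosomes through NPC1 and NPC2, and store the excess as esters made by SOAT1.

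Depth ranged from 41435922 recovered gene reads in knockdown library 2 to 51851314 in non-targeting library 2. The targeted RNA, listed under its current symbol SGO1-AS1, had 24 and 21 reads with the non-targeting oligonucleotide and 12 and 17 with the one directed at it. Its normalized counts were 23.1 and 19.8 against 11.5 and 19.4, so that knockdown library 2 stood close to non-targeting library 2. These counts are too few to check the labels. All 13 listed markers of a monocytic leukaemia cell were present, with summed normalized counts of 109600 to 115700 in the non-targeting and 106200 to 112000 in the knockdown libraries. Of 15 markers of lymphoid, erythroid, megakaryocytic, epithelial or fibroblast cells 6 were in the table, with sums per cell class of 27.9 to 294 in any library, and the defining genes CD3E, MS4A1, HBB, GATA1 and EPCAM were not among them. Values below are normalized counts, reads divided by 1 size factor for each library. Fold changes are knockdown minus non-targeting on the log2(value + 1) scale, with a standard error (SE) from limma, a linear model fitted to the 19398 genes whose mean reached 10. Limma draws much of each SE from other genes of similar level, not from the gene's own libraries alone. A gene is said to fall or rise where its Benjamini-Hochberg adjusted p was under 0.05. In bulk RNA, fewer cells expressing a gene and less RNA per cell cannot be told apart.

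Sterol genes were lower in the knockdown as a group, by modest amounts. Of the 29 genes 13 fell and 0 rose, against 3.4% lower and 0.851% higher among all tested genes. Because the genes were chosen with earlier results of these data known, such contrasts describe the set and are no independent test of it. No member was higher at an unadjusted p under 0.05 by limma, edgeR or DESeq2. Their median log2 fold change was -0.20, against -0.01 over all tested genes, and their range ran from -0.63 for INSIG1 to 0.00 for MBTPS1. Both knockdown values lay below both non-targeting values in 21 of the 29, or 72.4%, while 25.1% of all tested genes showed that order. The opposite order was found in 0 of the 29 and in 21.6% of all tested genes. A fold change below 0 was seen in 28 of the 29, against 52.5% of all tested genes. Quantile normalization left 26 below 0, with 47.3% of all tested genes, and scaling all libraries to 1 total left 22 (75.9%), with 37.3% of all tested genes. The fall was of like size in both knockdown libraries: the median member stood at -0.21 in knockdown library 1 and at -0.19 in knockdown library 2 relative to the non-targeting mean, and at -0.03 and 0.03 in the non-targeting libraries. Fewer members were called with a non-targeting library left out, 6 without non-targeting library 1 and 6 without non-targeting library 2, against 12 and 14 without knockdown library 1 or 2. EdgeR called 11 lower and 0 higher, against 2.87% and 0.82% of all tested genes, and DESeq2 8 and 0, against 1.96% and 0.345%.

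**Figure D1:**
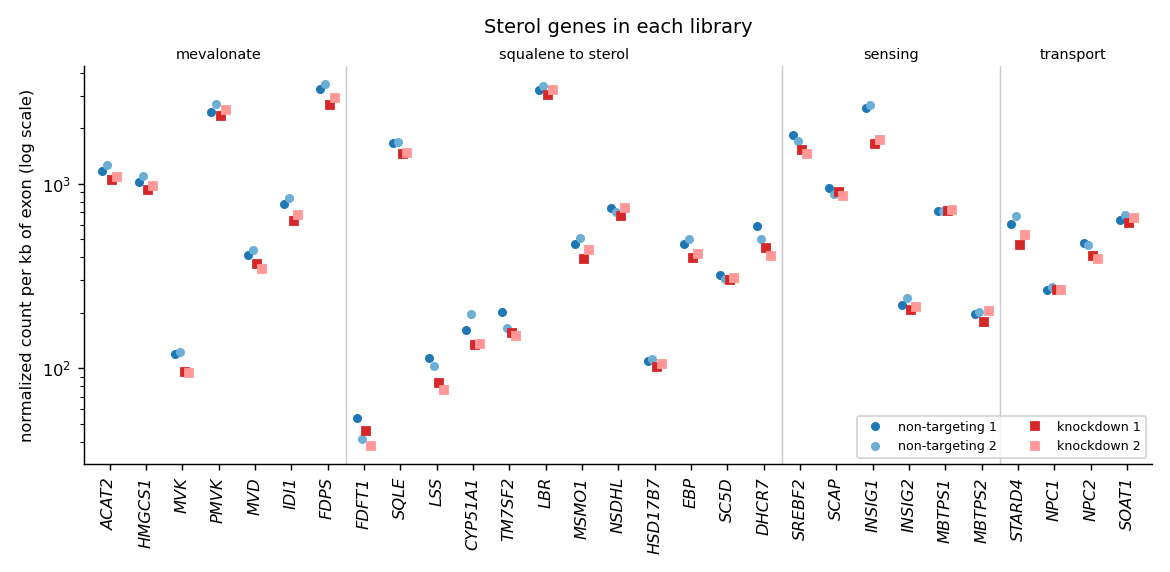
Normalized count per kilobase of annotated exon (log axis) of the 29 sterol genes in pathway order, with 1 point per library: circles are the 2 non-targeting and squares the 2 knockdown libraries. INSIG1 shows the widest gap, from 2609 to 1687 per kilobase on average, while the MBTPS1 points lie on top of each other.

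The 7 mevalonate genes take acetyl-CoA to farnesyl diphosphate, and 5 of them fell, with a median log2 fold change of -0.26. FDPS, which makes farnesyl diphosphate and is the most highly expressed of the 29 per kilobase of exon, had normalized counts of 12135 and 12950 in control cells and 9894 and 10789 after knockdown. The groups did not overlap, and the mean was 17.5% lower (limma, log2 fold change -0.28 ± 0.05 SE, adjusted p = 0.00278). IDI1, which converts isopentenyl diphosphate to the reactive isomer, stood at 3379 and 3618 and then at 2731 and 2941. This is a fall of similar size (limma, -0.30 ± 0.06, adjusted p = 0.00352), again with no overlap. The kinase MVK, which phosphorylates mevalonate, gave the tightest pairs, 774 and 790 against 618 and 612. Its level fell furthest among these 7 genes (limma, -0.35 ± 0.08, adjusted p = 0.0134). MVD, the decarboxylase that makes isopentenyl diphosphate, went from 1940 and 2071 to 1735 and 1618 (limma, -0.26 ± 0.07, adjusted p = 0.0226). ACAT2, the thiolase that opens the pathway, went from 5050 and 5462 to 4479 and 4700, only just past the threshold (limma, -0.20 ± 0.06, adjusted p = 0.0481).

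The remaining 2 mevalonate genes did not pass. HMGCS1, the synthase for HMG-CoA, had non-overlapping values of 4799 and 5173 against 4330 and 4587 (limma, -0.16 ± 0.06, adjusted p = 0.118). PMVK, which adds the next phosphate after MVK, overlapped between groups, with 3147 and 3458 against 2964 and 3202 (limma, -0.10 ± 0.06, adjusted p = 0.439). Of the 3 enzymes that act in sequence on mevalonate, MVK and MVD thus passed and PMVK did not, though the difference between these genes was not tested. A fit with 1 library left out has less data, so a lost call alone does not show that a fall rests on that library. All 5 calls in this stretch were lost in at least 1 such fit. Without non-targeting library 2 they ended, at -0.33 for MVK, -0.21 for MVD, -0.25 for IDI1, -0.23 for FDPS and -0.14 for ACAT2 (limma, adjusted p = 0.111, 0.252, 0.0781, 0.0754 and 0.487). Without non-targeting library 1 MVK was at -0.36 and ACAT2 at -0.25 (limma, adjusted p = 0.0837 and 0.0722). Without knockdown library 1 ACAT2 was at -0.16 (limma, adjusted p = 0.117). Without knockdown library 2 MVD was at -0.21 and HMGCS1 was called lower, at -0.20 (limma, adjusted p = 0.0733 and 0.0263).

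The 12 genes from squalene to cholesterol were also mostly lower, with 5 that fell and a median of -0.22. LSS, the cyclase that folds squalene epoxide into lanosterol, fell furthest, from 827 and 741 to 599 and 552 normalized counts. Its mean was 26.6% lower (limma, -0.44 ± 0.09, adjusted p = 0.00322). CYP51A1, which removes the 14-alpha methyl group of lanosterol, went from 577 and 705 to 481 and 486, with the spread lying in the non-targeting pair (limma, -0.40 ± 0.10, adjusted p = 0.0182). In GENCODE 29, another gene model on the same strand covers 79.35% of the exonic bases of CYP51A1, so that its reads may have been left out or shared in counting. DHCR7, the last reductase before cholesterol, went from 2458 and 2090 to 1875 and 1688 (limma, -0.35 ± 0.07, adjusted p = 0.00611). EBP, the sterol isomerase, went from 1136 and 1211 to 951 and 1006 (limma, -0.26 ± 0.07, adjusted p = 0.0419). SQLE, the oxygenase that makes squalene epoxide and a rate-limiting step, had the closest replicates of the 5, with 7153 and 7240 against 6241 and 6318 (limma, -0.20 ± 0.05, adjusted p = 0.0248). None of the 5 genes had overlapping groups.

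The other 7 enzymes of this stretch did not pass, some with a shift like that of their neighbours and some near 0. MSMO1, the C4-methyl oxidase, missed the threshold narrowly with 1361 and 1470 against 1126 and 1258 (limma, -0.25 ± 0.07, adjusted p = 0.0557). TM7SF2 and LBR both carry sterol C14-reductase activity, LBR being also a receptor for lamin B in the nuclear membrane. TM7SF2 had 687 and 562 against 526 and 510, a wide non-targeting pair (limma, -0.26 ± 0.10, adjusted p = 0.143). LBR had 16965 and 17891 against 15850 and 16940 (limma, -0.09 ± 0.05, adjusted p = 0.394), and its level per kilobase was 3315 against 183 for TM7SF2 in the non-targeting mean. NSDHL, the dehydrogenase that works with MSMO1 on the C4 methyl groups, had 1481 and 1408 against 1336 and 1478, and SC5D, the C5-desaturase, had 1790 and 1702 against 1681 and 1727, so that both overlapped between groups. HSD17B7, the ketoreductase of the same C4 complex, had 525 and 539 against 487 and 504. The log2 fold changes of NSDHL, SC5D and HSD17B7 were -0.04, -0.03 and -0.10 (limma, adjusted p = 0.835, 0.841 and 0.615). Their 95% intervals, -0.18 to 0.11, -0.17 to 0.10 and -0.29 to 0.08, leave out a fall of the size estimated for LSS, the largest of this stretch. The interval of LSS itself was -0.62 to -0.26. That of HSD17B7 holds the falls of EBP and SQLE, -0.26 and -0.20, while those of NSDHL and SC5D leave both out. The differences between these genes were not tested. FDFT1, which joins 2 farnesyl units into squalene, gave few reads, 278 and 215 against 239 and 196 normalized counts, and an interval of -0.47 to 0.11 that holds both 0 and the LSS value. At 47.5 per kilobase in the non-targeting mean it was the lowest of the 29.

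Leaving out libraries moved several of these calls. Without non-targeting library 1 the calls of LSS, DHCR7, SQLE and EBP ended, at -0.37, -0.23, -0.21 and -0.31 (limma, adjusted p = 0.0881, 0.228, 0.201 and 0.105). Without non-targeting library 2 those of CYP51A1, SQLE and EBP did, at -0.25, -0.19 and -0.22 (limma, adjusted p = 0.363, 0.217 and 0.334), and TM7SF2 was called lower at -0.41 (limma, adjusted p = 0.0416). EBP was also lost without knockdown library 1, at -0.22 (limma, adjusted p = 0.116), and MSMO1 was called without knockdown library 2, at -0.33 (limma, adjusted p = 0.00231). The 2 libraries of a group differed from each other in the same direction in both groups (library 1 minus library 2) for 24 of the 29 members, or 82.8%, against 59.3% of all tested genes. SREBF2, LSS, DHCR7 and TM7SF2 were higher in library 1 of both groups, and FDPS, IDI1, STARD4 and MSMO1 in library 2 of both. The knockdown libraries are numbered by column order, and the reverse numbering would turn these directions over. Library 2 of both groups carries the same replicate number in its column name. Whether libraries of the same number were handled together was not tested.

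**Figure D2:**
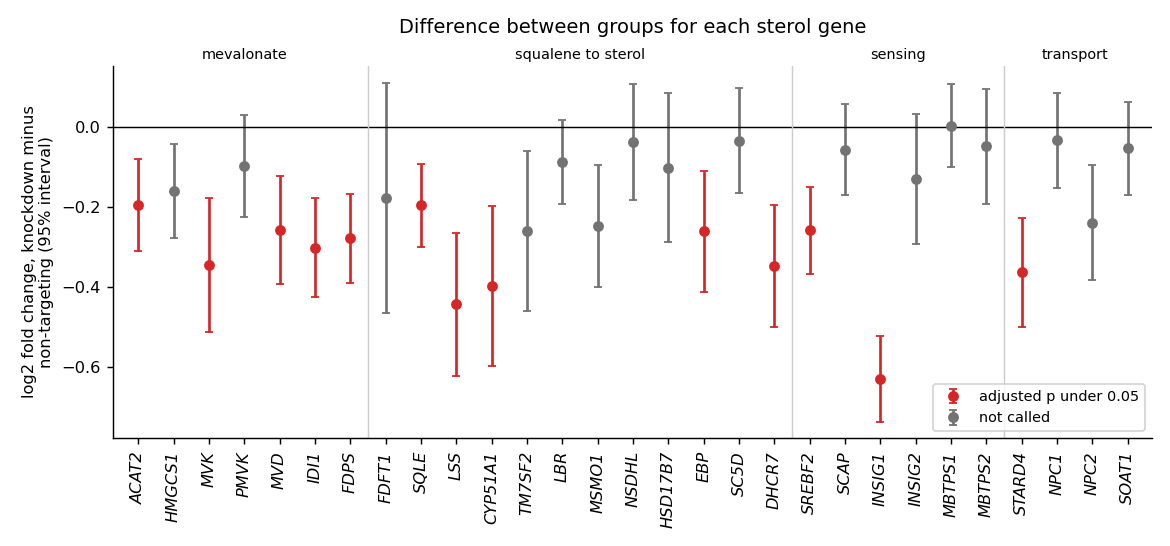
Log2 fold change (knockdown minus non-targeting) of each sterol gene with its 95% interval from limma, in pathway order; red points are the 13 genes with an adjusted p under 0.05 and grey points the 16 that did not pass. INSIG1 lies lowest at -0.63, and the proteases MBTPS1 and MBTPS2 lie close to 0.

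Among the 6 sensing genes, INSIG1 and SREBF2 fell and the other 4 did not pass. INSIG1 had normalized counts of 9347 and 9700 in control cells and 5990 and 6323 after knockdown. The groups were far apart next to their spread, at 9524 ± 250 and 6156 ± 235 (SD, n = 2), and the mean was 35.4% lower (limma, 95% interval of the log2 fold change -0.74 to -0.52, adjusted p = 1.02e-07). Its fold change ranked at place 332 from the lowest of 19398 genes. SREBF2, the precursor of the pathway's own transcription factor, stood at 13955 and 12948 against 11588 and 10892. It fell by less (limma, -0.26 ± 0.05, adjusted p = 0.00449), and without non-targeting library 1 its call ended at -0.20 (limma, adjusted p = 0.184).

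INSIG2, the paralog of INSIG1 with the same retention function, had 868 and 953 against 815 and 846 (limma, -0.13 ± 0.08, adjusted p = 0.416). Per kilobase of exon, INSIG1 was 11.6 and 11.0 times as abundant as INSIG2 in the non-targeting libraries and 7.95 and 8.09 times in the knockdown libraries. These ratios did not overlap between groups, and an exact permutation test of 2 against 2 libraries, two-sided, cannot go below p = 0.333. SCAP, the escort, overlapped between groups with 6101 and 5656 against 5793 and 5503 (limma, -0.06 ± 0.05, adjusted p = 0.656). The site-1 protease gene MBTPS1 had 7285 and 7317 against 7264 and 7361, and its 95% interval, -0.10 to 0.11, is among the narrowest of the 29. The site-2 protease gene MBTPS2 had 1747 and 1791 against 1598 and 1829 (limma, -0.05 ± 0.07, adjusted p = 0.783).

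Promoter sequences were set beside these values because many of the sterol genes were lower together. SREBP factors bind sterol regulatory elements and usually act together with NF-Y, which binds CCAAT. RefSeq promoter windows (GRCh38.p14, 250 bases before to 50 after each start) were at hand for 26 of the 29 genes. The classical sterol regulatory element, searched on both strands as the run of 10 bases in capitals in the SREBF2 sequence, was found in 16 of 35116 windows, 0.0456%. Among the sterol genes it was in SREBF2 alone, 134 bases before the start. The looser TCACNCCAC, which that element contains, occurred in 1.13% of windows and again in SREBF2 alone of the 26. CCAAT, on either strand, was in the windows of 18 of the 26 genes (69.2%), against 39.7% of the 27305 genes in the promoter table and 42.6% of the 11815 tested genes matched to it. It was in 10 of the 11 members that fell and have a window, CYP51A1 being the exception, and in 8 of the 15 that did not pass. The E-box CACGTG was in 4 of 26 genes (15.4%), among them INSIG1, against 8.77% of genes in the table and 12% of the tested genes. The GC box GGGCGG was in 22 of 26 (84.6%), against 48.3% and 73.6%. A match is a description of the letters and shows no binding, and genes with several starts have more chances of a match. Other forms of the sterol element, and elements outside the windows, were not searched. A gene without a match may therefore still carry such an element. A stretch before the start is given for 5 genes: 3 that fell in sensing and transport and 2 from the same machinery that did not pass. Capitals mark the sterol regulatory element and CCAAT, which reads ATTGG where it lies on the other strand. Each is RefSeq sequence of GRCh38.p14, written 5′ to 3′ on the gene's strand, and stops where the gene begins in GENCODE 29 or RefSeq, whichever is first. They lie at chr22:41832855-41833078 (plus strand, SREBF2), chr7:155297628-155297775 (plus, INSIG1), chr5:111512591-111512785 (minus, STARD4), chr2:118088221-118088451 (plus, INSIG2) and chr16:84116943-84117192 (minus, MBTPS1).
SREBF2: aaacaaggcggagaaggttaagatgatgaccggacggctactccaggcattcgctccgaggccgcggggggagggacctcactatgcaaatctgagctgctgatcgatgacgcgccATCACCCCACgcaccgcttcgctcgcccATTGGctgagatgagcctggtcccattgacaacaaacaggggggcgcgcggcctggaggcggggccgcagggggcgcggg
INSIG1: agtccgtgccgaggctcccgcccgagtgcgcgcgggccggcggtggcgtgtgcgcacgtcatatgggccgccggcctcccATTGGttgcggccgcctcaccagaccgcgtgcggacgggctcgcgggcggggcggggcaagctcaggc
STARD4: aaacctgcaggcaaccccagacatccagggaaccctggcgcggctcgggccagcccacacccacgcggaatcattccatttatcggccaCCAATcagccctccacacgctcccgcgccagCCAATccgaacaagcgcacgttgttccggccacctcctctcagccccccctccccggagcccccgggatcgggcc
INSIG2: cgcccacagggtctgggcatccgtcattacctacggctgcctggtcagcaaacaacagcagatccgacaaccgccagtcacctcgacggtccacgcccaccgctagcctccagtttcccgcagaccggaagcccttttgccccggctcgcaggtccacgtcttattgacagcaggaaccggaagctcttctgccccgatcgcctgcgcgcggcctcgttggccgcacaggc
MBTPS1: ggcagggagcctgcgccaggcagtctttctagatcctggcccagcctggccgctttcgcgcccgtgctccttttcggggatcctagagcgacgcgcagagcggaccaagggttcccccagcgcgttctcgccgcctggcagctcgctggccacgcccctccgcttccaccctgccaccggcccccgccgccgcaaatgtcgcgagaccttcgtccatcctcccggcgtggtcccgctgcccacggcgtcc
The SREBF2 stretch holds the sterol element followed by an inverted CCAAT, INSIG1 holds 1 inverted CCAAT and STARD4 holds 2 on the gene's strand. The stretches of INSIG2 and MBTPS1 hold neither motif. MVK and NSDHL had the most CCAAT matches, 5 in 1 window each (in NSDHL overlapping matches on both strands count separately), and while MVK fell, NSDHL stood at -0.04. The number of matches thus did not follow the fold change in that pair.

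**Figure D3:**
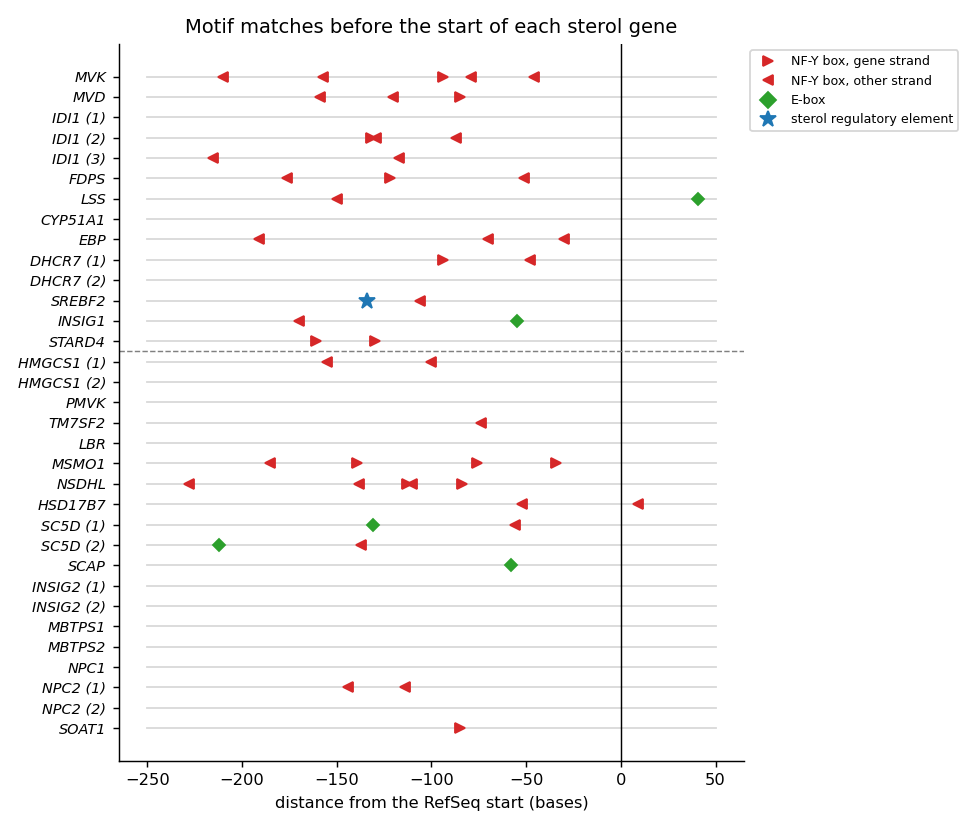
Motif matches in the RefSeq windows of 26 sterol genes by distance from the start in bases, with 1 line per listed start; genes above the dashed line fell and those below did not pass. NF-Y boxes (red triangles, pointing with their strand) lie before the start of 10 of 11 genes above the line and 8 of 15 below it. The single exact match to the classical sterol regulatory element (blue star) is in SREBF2, and green diamonds are E-boxes. Other forms of the sterol element were not drawn.

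Of the 4 transport and storage genes 1 fell. STARD4, a soluble carrier that moves cholesterol between membranes, had 3418 and 3803 in control cells and 2634 and 2981 after knockdown. The groups did not overlap, with means of 3610 ± 272 and 2808 ± 245 (SD, n = 2), 22.2% lower (limma, 95% interval of the log2 fold change -0.50 to -0.23, adjusted p = 0.00163). NPC2, the soluble lysosomal protein that hands cholesterol to NPC1, stood just outside the threshold with 1308 and 1283 against 1121 and 1073 (limma, -0.24 ± 0.07, adjusted p = 0.0510). It was called lower without knockdown library 1, at -0.27 (limma, adjusted p = 0.0275). Its membrane partner NPC1 had 2678 and 2796 against 2674 and 2670 (limma, -0.03 ± 0.06, adjusted p = 0.821). SOAT1, which esterifies cholesterol for storage, overlapped between groups with 4466 and 4728 against 4286 and 4566 (limma, -0.05 ± 0.06, adjusted p = 0.680). The 95% intervals of NPC1, -0.15 to 0.09, and of SOAT1, -0.17 to 0.06, leave out a fall as large as that of STARD4.

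Per kilobase of exon the levels of the 29 genes spanned from 47.5 for FDFT1 to 3373 for FDPS in the non-targeting mean. FDPS and LBR led, at 3264 and 3483 against 3227 and 3403 per kilobase in the non-targeting libraries, and did not differ beyond their spread. INSIG1, at 2561 and 2658, lay within the span of PMVK, at 2459 and 2702. After knockdown INSIG1, at 1641 and 1732 per kilobase, stood below PMVK, at 2316 and 2502, without overlap. SREBF2 (1847 and 1713), SQLE (1662 and 1682), ACAT2 (1175 and 1271) and HMGCS1 (1021 and 1100) came next in control cells, in an order without overlap. SCAP, IDI1, NSDHL and MBTPS1 followed, of which NSDHL and MBTPS1 overlapped. At the lower end LSS, HSD17B7 and MVK lay between 102 and 122 per kilobase in the non-targeting libraries, with LSS and HSD17B7 overlapping. LSS, the synthesis enzyme with the largest fall, was thus also among the least abundant of these mRNAs per kilobase.

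The calls differed in how firmly they stood. INSIG1 and STARD4 were the 2 members that kept their call with each library left out in turn, and they lost it under 1 of 15 other settings, the fit with no mean-variance trend, where limma called 0 members and 0 genes in all. In that fit 13 members and 2337 genes were at an unadjusted p under 0.05. The 13 genes that fell kept a negative fold change under each of the 15 settings. The 8 called by limma, edgeR and DESeq2 alike were IDI1, FDPS, SQLE, LSS, DHCR7, SREBF2, INSIG1 and STARD4. Among the 16 that did not pass, the sign changed under at least 1 setting in 8, which were FDFT1, NSDHL, SC5D, SCAP, MBTPS1, MBTPS2, NPC1 and SOAT1.

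**Figure D4:**
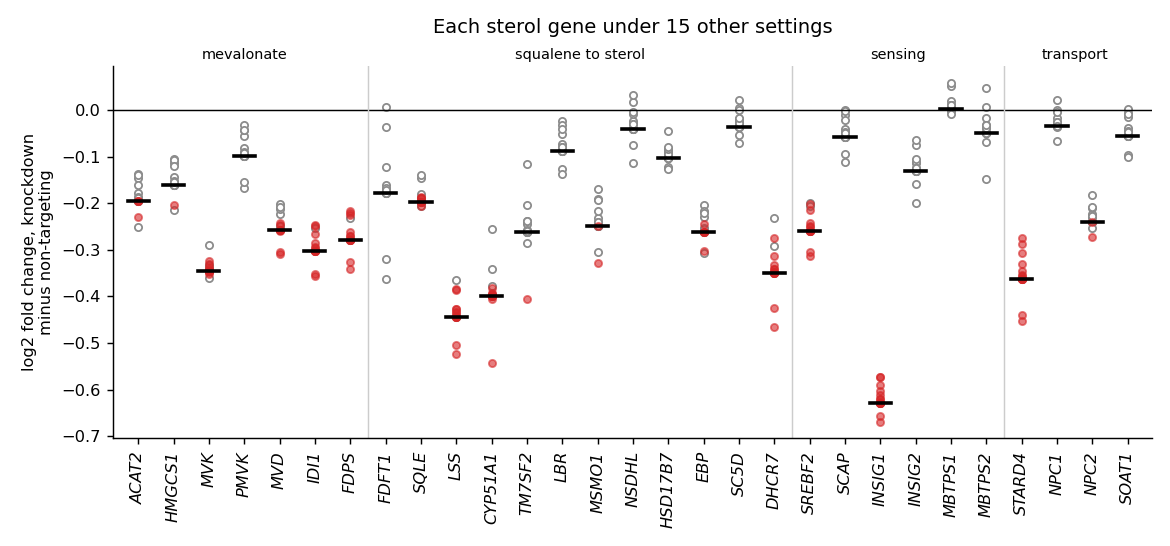
Log2 fold change (knockdown minus non-targeting) of each sterol gene as reported (black bar) and under 15 other settings (circles, red where the gene was called). INSIG1 stayed between -0.67 and -0.57, while FDFT1 ranged from -0.36 to 0.01.

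Genes around this core were shifted less. A list of 63 further genes of the pathway, drawn up by role, had 59 tested members, of which 6 fell (10.2%) and 0 rose, against 3.4% and 0.851% of all tested genes. They had a median of -0.04 against -0.20 for the sterol genes and -0.01 over all genes. By edgeR 4 fell (6.78%, against 2.87% of all tested genes) and by DESeq2 1 (1.69%, against 1.96%), which is no more than the share over all genes. In the list, 1 gene was higher at an unadjusted p under 0.05 by edgeR and 0 by limma or DESeq2. RABGGTA and SOAT2 are not analysed here, and FAXDC2 and GRAMD1C had too low a mean to be tested. In the isoprenoid branch, which uses farnesyl diphosphate for prenylation, dolichol and ubiquinone, 0 of 16 genes passed by limma, edgeR or DESeq2. By each of these tools 3 of the 16 (18.8%) were lower at an unadjusted p under 0.05, against 11.0% of all tested genes by limma, 9.89% by edgeR and 6.18% by DESeq2. The largest shift was that of the dolichol kinase DOLK (limma, -0.22 ± 0.07, adjusted p = 0.106). Of 9 accessory genes of sterol synthesis POR fell, the reductase that passes electrons to CYP51A1 and SQLE. It went from 3372 and 3125 to 2771 and 2766 (limma, -0.23 ± 0.06, adjusted p = 0.0237), and ERG28, a scaffold of the C4-demethylation complex, was at -0.18 (limma, adjusted p = 0.167).

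Of 16 regulators of SREBP processing and sterol-driven degradation, ERLIN1 fell, an endoplasmic reticulum protein that binds cholesterol and restrains SREBP export. It had 9516 and 9306 against 8118 and 8442 (limma, -0.18 ± 0.05, adjusted p = 0.0346), and the coat protein gene SEC24C was at -0.10 (limma, adjusted p = 0.3). Uptake and trafficking gave 4 falls of 18 genes. LIPA, the lysosomal lipase that frees cholesterol from lipoproteins, went from 3649 and 3757 to 3060 and 3255 (limma, -0.23 ± 0.06, adjusted p = 0.0195). The phospholipid transfer protein PLTP fell by 0.24 on the log2 scale, the receptor LRP1 by 0.26 and the VLDL receptor VLDLR by 0.17 (limma, adjusted p = 0.0224, 0.0365 and 0.0488). The ubiquitin ligase MYLIP, which degrades lipoprotein receptors, stood at -0.18 (limma, adjusted p = 0.122). Of the 6 falls 0 held without non-targeting library 1 (limma, adjusted p from 0.0955 for LIPA to 0.420 for POR), where 7 of the 59 genes (11.9%) and 10.8% of all tested genes were at an unadjusted p under 0.05. Without non-targeting library 2, POR and PLTP stood at -0.28 and -0.30 (limma, adjusted p = 0.0348 and 0.0286) and the calls of ERLIN1, VLDLR, LIPA and LRP1 ended (limma, adjusted p = 0.159, 0.241, 0.183 and 0.22). Without knockdown library 1 the calls of ERLIN1, LIPA, LRP1 and VLDLR ended (limma, adjusted p = 0.0931, 0.0729, 0.0833 and 0.0658), while ERG28 was called lower, at -0.26 (limma, adjusted p = 0.0268). MYLIP was called lower without knockdown library 2, at -0.25 (limma, adjusted p = 0.0108). Scaled by quantiles or to 1 total, 0 of the 59 genes passed by limma, with 10 (16.9%) and 11 (18.6%) at an unadjusted p under 0.05, as were 16.26% and 17.96% of all tested genes. The list's median was -0.01 and 0.01 under these scalings, against 0.01 and 0.05 over all tested genes.

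**Figure D5:**
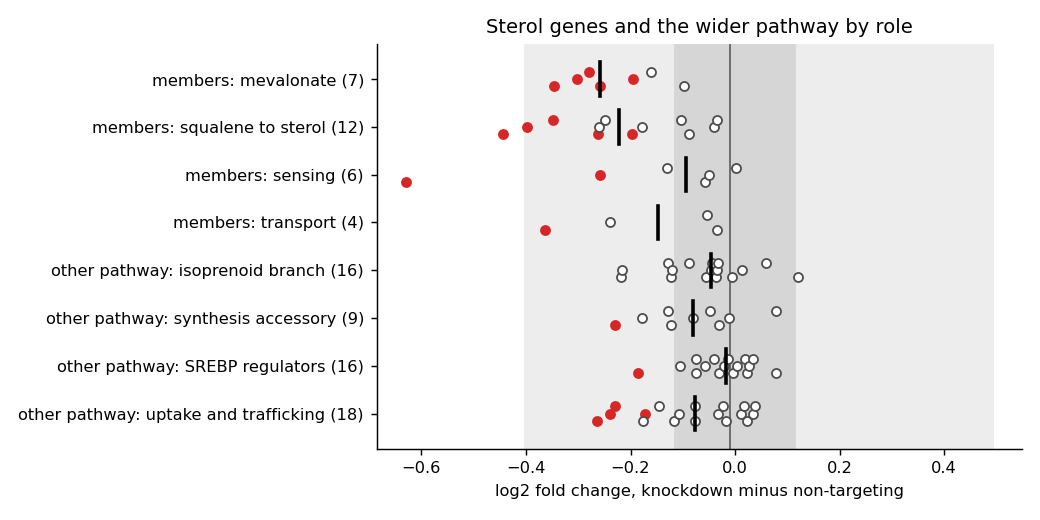
Log2 fold changes (knockdown minus non-targeting) of the 29 sterol genes and of 59 further pathway genes by role; filled points passed the threshold, black bars are medians, and the shading spans the 25th to 75th (dark) and 5th to 95th (light) percentile of all 19398 tested genes. The mevalonate genes have the lowest median, -0.26, and the SREBP regulators one of -0.02.

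Several members share exonic sequence with a gene on the other strand, and no source at hand gives the strand setting of the counting, so that reads of such pairs cannot be told apart. In GENCODE 29 the largest such overlap is in ACAT2, where the antisense SOD2-OT1 covers 33.9% of its exonic bases, followed by FDPS (18.6%, RUSC1-AS1), HMGCS1 (14.95%) and IDI1 (14.8%, IDI2-AS1). INSIG1 (chromosome 7, 155297776 to 155310235, plus strand, GRCh38) overlaps no other gene model in its exons. For STARD4 (chromosome 5, 111496033 to 111512590, minus strand) the overlap, with STARD4-AS1, is 2.18% of its exonic bases and for SREBF2 (chromosome 22, 41833079 to 41907308, plus strand) it is 3.71%.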

How the data were processed

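Per the labels' protocols, RNA came from a Qiagen RNeasy kit and libraries from NEBNext Ultra II. STAR 2.5.1b, DESeq2 and GRCh38 stand in the submitters' processing notes with no role; for annotation, counter and strand setting, nothing is given in the sources used here. Deposited by the authors was a normalized signal, gene reads over a size factor for each library, from which 100% of values gave back whole reads (within 0.000464). The table lists genes with 2 or more reads in knockdown library 1; others are not analysed here. Symbols were matched for 26579 of 27106 genes. Within-group pairs of libraries differed by a chi-square per degree of freedom of 4.47 (non-targeting) and 4.95 (knockdown), so none was a copy. Across groups this value was 9.16 for library 1 of both groups and 8.52 for library 2 of both. It was 10.2 for non-targeting library 1 with knockdown library 2, and 11.8 for non-targeting library 2 with knockdown library 1.

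Limma 3.58.1 (R 4.3.3, empirical Bayes with trend, both groups) tested log2(value + 1) where the mean was 10 or more; p-values were adjusted by Benjamini-Hochberg over all these genes, at a threshold of 0.05. Alternatives were DESeq2 1.42.0 and edgeR 4.0.16 (quasi-likelihood), both run on whole reads, other scalings, filters, pseudocounts, variance settings and thresholds, and each library left out. The methods were run on simulated data whose planted changes were larger than most of the falls reported here. That run does not show how they perform on changes as small as these. The members, the lists and the tests were chosen with earlier results of these data known. All 29 members are named and, of the 63 further genes, those past the threshold and, per role, the one with the largest shift among the rest; the alternatives for the latter genes were added after seeing the data. Lengths came from GENCODE 29 and promoters from RefSeq.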

Additional observations from a re-analysis of the deposited data

How the results depend on the processing

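The 17 alternatives left the counts of members and of further pathway genes that rose at 0. The count of members that fell, 13, stayed within 1.5 times under 10 of the 17, and ranged from 6 to 14 with 1 library left out. It was 7 with quantile normalization, 6 with equal totals, 0 with no mean-variance trend, 8 by DESeq2 and 7 at a threshold of 0.01. In the same order the further pathway genes that fell, 6, came to 0, 0, 0, 1 and 0, and to between 0 and 8 with a library left out. Over all genes, 660 fell and 165 rose. The lower count was 334 with quantile normalization, 293 with equal totals, 0 with no trend, 380 by DESeq2, 337 at a threshold of 0.01 and 334 to 960 with a library left out. The higher count was 291 with equal medians, 0 with no trend, 67 by DESeq2, 46 and 344 at thresholds of 0.01 and 0.1, and 87 to 309 with a library left out. Lower genes made up 80% of calls, and 69.1%, 70.2% and 55.5% with equal medians, quantile normalization and equal totals. The cause of these moves was not tested.

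The signs that changed were those of members that had not passed. With equal totals the log2 fold change was 0.0178 for NSDHL, 0.0224 for SC5D, 0.0001003 for SCAP, 0.00802 for MBTPS2, 0.0227 for NPC1 and 0.0026 for SOAT1. Quantile normalization gave 0.00481 for SC5D and 0.000199 for NPC1. With 1 library left out the values ran from -0.362 to 0.00662 for FDFT1, from -0.112 to 0.0335 for NSDHL, from -0.0712 to 0.00159 for SC5D, from -0.147 to 0.0484 for MBTPS2 and from -0.00718 to 0.0118 for MBTPS1, whose value was -0.000810 without non-targeting library 1. In these fits the remaining library of a group has no spread of its own and takes that of the other group. No paired analysis was possible because the columns of the 2 groups share only 1 replicate number. With 2 libraries per group, the fit with a mean-variance trend draws each gene's SE largely from other genes of similar level. MVK, with the tightest pairs of the mevalonate genes, thus had an SE of 0.08. CYP51A1, with a wide non-targeting pair, had one of 0.10. FDFT1 had the fewest reads of the members.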
